A study of Mus musculus with 4 samples.

Results

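The levels of the mature miRNAs of miR-871, miR-878, miR-880, miR-881 and miR-883, a group of X-linked hairpins, were measured in purified mouse Sertoli cells, and they make up 10 of the 567 mouse miRNAs on the array. They were chosen by name: every array entry equal to or starting with one of these 5 names was taken, which gave mmu-miR-871, mmu-miR-878-3p, mmu-miR-878-5p, mmu-miR-880, mmu-miR-881, mmu-miR-881*, mmu-miR-883a-3p, mmu-miR-883a-5p, mmu-miR-883b-3p and mmu-miR-883b-5p, written below without the prefix for mouse. Total RNA from Sertoli cells of B6129 male mice, 5 to 7 weeks old by the methods, was hybridized to 4 arrays in 3 groups. The Sham group (labelled control, 1 array) had a Silastic tube implanted subcutaneously and received saline intraperitoneally. The Flut+Acy group (labelled flutamide, 2 arrays) received the antiandrogen flutamide by subcutaneous tube and the gonadotropin-releasing hormone antagonist acyline by intraperitoneal injection. The Flut+Acy+T group (labelled Testosterone, 1 array) received testosterone in addition to both agents. Each RNA was pooled from 5 to 7 mice by the labels and methods, while a figure legend speaks of 6 mice pooled for each group. Whether both Flut+Acy arrays came from 1 pool is not settled by these sources, so their spread may be technical. The comparisons asked how the miRNAs differed when androgen action was suppressed and when testosterone was given back. Because the 5 names were proposed with results of these arrays known, and Sham and Flut+Acy+T have 1 array each, every value below is a description and no test was run.

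Sertoli cells nurse the developing germ cells within the seminiferous tubules, and androgen acts on spermatogenesis largely through the androgen receptor of these somatic cells. A miRNA is cut from a hairpin precursor, whose arms give a 5p and a 3p product, and one arm often accumulates while the other, the passenger arm marked with a star in older names, is degraded. The mature strand guides the silencing complex to messenger RNAs mainly by pairing through its seed, bases 2 to 8 from the 5′ end, so miRNAs with a common seed can share targets. The X chromosome of mouse holds a run of hairpins near Slitrk2 that is known for expression in the testis, and all of the hairpins described here lie in it.

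The mature sequences of the 8 arms that were detected on both Flut+Acy arrays are printed because the values below rest on them. They are written 5′ to 3′ with the seed in capitals and were taken from RefSeq (assembly GRCm38.p6), in which all 10 names were matched and the 6 hairpins are on the minus strand.
miR-883a-3p: uAACUGCAacagcucucaguau
miR-883b-3p: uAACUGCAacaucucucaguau
miR-883a-5p: uGCUGAGAgaaguagcaguuac
miR-880 (3p arm): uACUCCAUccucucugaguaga
miR-878-3p: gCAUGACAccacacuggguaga
miR-878-5p: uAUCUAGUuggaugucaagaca
miR-881 (3p arm): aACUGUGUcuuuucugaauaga
miR-871 (5p arm): uAUUCAGAuuagugccagucaug

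Over the 10 names there were 9 seeds, so these miRNAs share a location more than a targeting sequence. miR-883a-3p and miR-883b-3p were the exception. They have the same seed, and 21 of their 22 bases are identical, with the 1 substitution G12U (the base of miR-883a-3p first, counted from the 5′ end). The probes of both cover this base, but how far each probe also bound the other miRNA was not tested, so their signals are not fully separate measurements. Outside the 10, the 1738 mature mouse sequences of RefSeq held 1 more miRNA with a seed of theirs, miR-743a-5p from the same stretch of X. It has the seed of miR-871 and is printed to show how far the likeness goes beyond it.
miR-743a-5p: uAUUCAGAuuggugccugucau
The array entry for miR-743a lies on the other arm of that hairpin, so no level was measured for the sequence shown.

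In the coordinates of the scanner files (mm9), which give the stretch under the probes, the miRNAs lay on chromosome X over 29.7 kb. From the lower coordinate upward they were miR-883a-3p (chrX:64033943-64033961) with miR-883a-5p (chrX:64033978-64033996), miR-883b-3p (chrX:64043075-64043094) with miR-883b-5p (chrX:64043111-64043125), and miR-880 (chrX:64053715-64053733). These were followed by miR-878-3p (chrX:64054693-64054707) with miR-878-5p (chrX:64054729-64054746), miR-881 (chrX:64055129-64055150) with miR-881* (chrX:64055161-64055180), and miR-871 (chrX:64063647-64063665). In the RefSeq annotation of GRCm38.p6, used for names only, 0 of the 6 hairpins overlapped another annotated gene, so all of them are intergenic there. The nearest protein-coding genes on either side were the predicted genes Gm52436 and Gm52439.

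The arrays differed in quality in a way that touches every comparison with Flut+Acy+T. Quantile normalization brought all 4 arrays to one distribution, so the normalized Sham and Flut+Acy values also depend on the Flut+Acy+T array. No setting without that array was run. The scanner software calls a miRNA detected when the signal of at least 1 of its probes is over 3 times its error, a rule that gave 2268 of the 2268 deposited flags. On this basis Sham detected 193 of 567 mouse miRNAs, the Flut+Acy pair 275 and 270, and Flut+Acy+T 102. The 672 negative control spots had an SD of 1326 units on Flut+Acy+T and of 2.72 to 7.45 on the remaining arrays, and 535 spots of Flut+Acy+T were marked nonuniform against 0 to 4 elsewhere. The median error of a miRNA's total signal was 123 units on Flut+Acy+T and 2.46 to 3.87 on the other arrays. Summed over all mouse miRNAs with a positive signal, Sham gave 57940 units and the Flut+Acy pair 139602 and 161460, so signals before normalization were higher on Flut+Acy in general. The array carries no messenger RNA marker of Sertoli cells by which the labelled cell type could be checked.

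Androgen suppression was accompanied by higher signals for 8 of the 10 miRNAs. After quantile normalization the estimates were 1.63-fold for miR-878-3p and 3.74-fold or more for the other 7. Of these 7, 4 were not detected on Sham, and their values make no allowance for error. Over all 283 miRNAs with a detected value in these groups, Flut+Acy exceeded Sham by 2-fold or more for 22.6% after quantile normalization. Before normalization that share was 74.9%. On Sham, 4 of the 10 were detected (miR-871, miR-878-3p, miR-880 and miR-883a-3p). On both Flut+Acy arrays 8 were detected, those 4 and miR-878-5p, miR-881, miR-883a-5p and miR-883b-3p. These arrays both detected 263 of the 567. In this RNA from whole cell pools, more cells of a type and more RNA per cell cannot be told apart.

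miR-880 gave a total signal of 27.1 units on Sham (scanner error 3.18), 778 and 860 on the Flut+Acy arrays (errors 57.4 and 63.0) and 477 on Flut+Acy+T (error 129). Both Flut+Acy arrays were high, Sham was low, and Flut+Acy+T lay between them. Before any normalization between arrays, the Flut+Acy signals were 28.8 and 31.8 times that of Sham. After quantile normalization, which gives all arrays the same distribution of values, the log2 signals were 7.17 for Sham, 9.40 and 9.46 for the Flut+Acy pair and 8.04 for Flut+Acy+T. Flut+Acy thus exceeded Sham by 2.26 on the log2 scale, or 4.78-fold, against an SD of 0.04 in the Flut+Acy pair (n = 2).

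**Figure D1:**
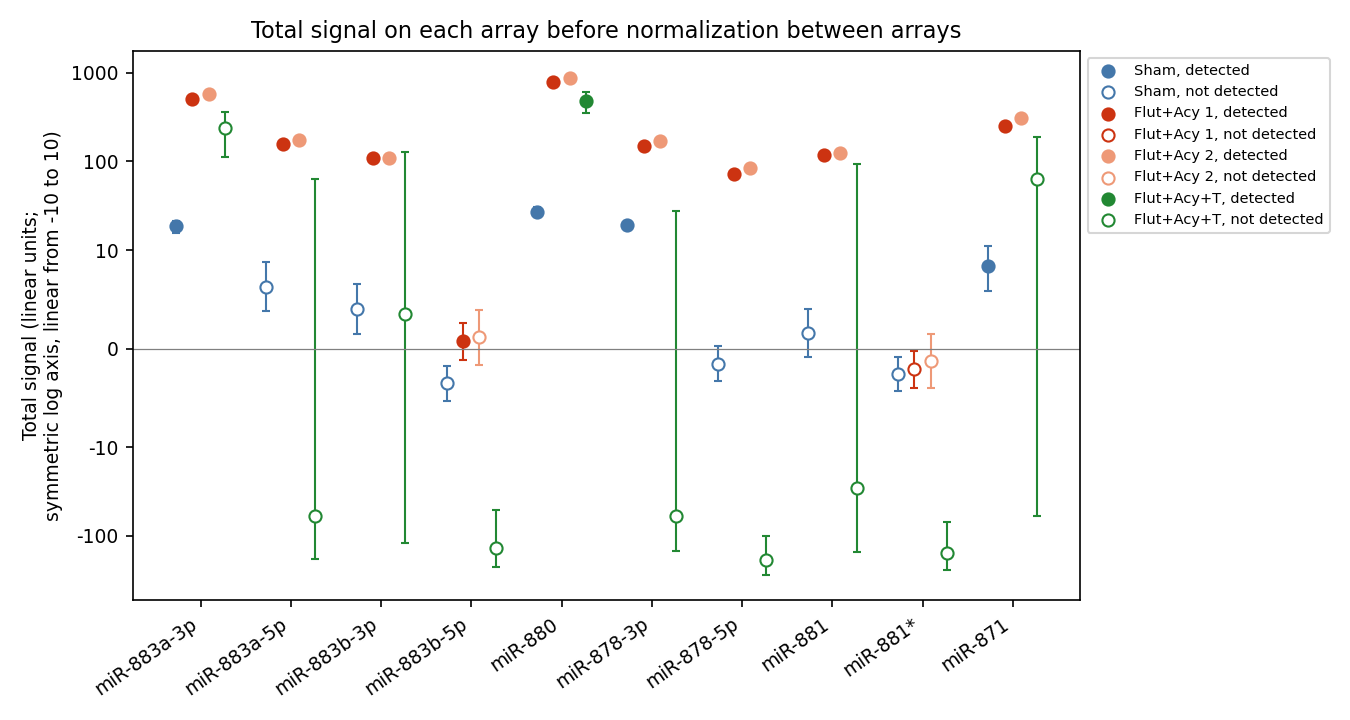
Total signal of each of the 10 miRNAs on each array before normalization between arrays (linear units on a symmetric log axis, linear near 0), with filled points for detected and open points for not detected, and bars for the error given by the scanner software. The Flut+Acy points of 8 miRNAs lie far above the Sham points, those of miR-881* and miR-883b-5p lie near 0, and the bars of Flut+Acy+T reach over most of the range.

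miR-871 gave 8.42 units on Sham (error 2.59), 249 and 311 on Flut+Acy (errors 20.9 and 25.0) and 63.4 on Flut+Acy+T (error 124), where it was not detected. On Sham it was near the limit, with 2 of its 20 spots well above background against 20 of 20 on each Flut+Acy array. Its Flut+Acy signals were 29.6 and 37.0 times Sham before normalization, and the normalized log2 values of 5.99 on Sham and 8.08 and 8.19 on Flut+Acy gave a difference of 2.14 (4.42-fold, SD of the pair 0.08, n = 2).

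From the miR-883a hairpin, miR-883a-3p gave 18.5 units on Sham (error 2.94), 503 and 580 on Flut+Acy (errors 41.9 and 47.9) and 238 on Flut+Acy+T (error 125), where it was not detected. The ratios before normalization were 27.2 and 31.3, and the normalized log2 values were 6.75 on Sham and 8.91 and 8.84 on Flut+Acy. That is a difference of 2.13 (4.37-fold, SD 0.05, n = 2), close in size to those of miR-880 and miR-871. The other arm, miR-883a-5p, gave 6.29 units on Sham (error 2.51, not detected) and 158 and 172 on Flut+Acy (errors 11.8 and 13.0). For an arm not detected on Sham, a cautious estimate was used, called a bound here. Sham was set to the higher of its own normalized signal and the lowest normalized signal detected on that array. The bound makes no allowance for error, so the true difference may be smaller. For miR-883a-5p it was 4.18-fold above Sham, the same as the estimate from its own undetected Sham signal. Both arms of this hairpin were therefore present on both Flut+Acy arrays, with 20 of 20 spots each well above background.

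The paralog miR-883b-3p gave 4.03 units on Sham (error 2.50, not detected) and 109 and 110 on Flut+Acy (errors 9.31 and 9.56). Its bound was 3.74-fold above Sham, again the same as the estimate from its own Sham signal. Its partner miR-883b-5p gave -3.53 units in Sham, 0.77 and 1.14 in the Flut+Acy pair and -138 with testosterone. None of its Flut+Acy signals exceeded its own error (1.88 and 2.76), and 0 of 20 spots were well above background on either array. It carried the detection flag on the first Flut+Acy array through 1 probe, the one that covers 15 bases, which gave 2.98 units there (error 0.98) and 3.89 on the second array (error 1.42). After normalization it lay at the floor on all 4 arrays. Signal was thus measured for both arms of miR-883a and for the 3p arm of miR-883b. The probes of miR-883b-5p cover 12 to 15 bases and those of miR-883a-5p 18 to 19. Whether the hairpins or the probes differed was not tested.

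miR-881 gave 1.59 units on Sham (error 2.47, not detected) and 119 and 124 on Flut+Acy (errors 9.54 and 10.2), with 0 of 20 spots well above background on Sham and 20 of 20 on each Flut+Acy array. The bound of Flut+Acy over Sham was 6.20-fold, the highest among the 4 arms not detected on Sham. These bounds make no allowance for error and are for the quantile-normalized total signals only. With normexp background correction the log2 differences were under 2-fold, at 0.93 for miR-881, 0.78 for miR-878-5p, 0.82 for miR-883a-5p and 0.57 for miR-883b-3p. Its passenger arm miR-881* gave between -2.60 and -1.29 units on Sham and both Flut+Acy arrays and was detected on none of the 4 arrays, so no level or difference was measured for it.

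In the miR-878 hairpin, the 3p arm showed a smaller difference than the other arms detected on both Flut+Acy arrays. Its size depended on the probe, as given below. miR-878-3p gave 18.9 units on Sham (error 2.10), 149 and 170 on Flut+Acy (errors 12.2 and 14.1) and -59.9 on Flut+Acy+T (error 87.2). Its Flut+Acy signals were 7.85 and 8.97 times that of Sham before normalization, less than the 27.2 to 37.0 times of the other 3 arms detected on Sham. After normalization its log2 values were 6.80 on Sham and 7.49 and 7.52 on Flut+Acy, a difference of 0.70 (1.63-fold, SD 0.02, n = 2), and it was the one of the 8 arms under 2-fold. miR-878-5p, from the same hairpin, gave -1.52 units on Sham (error 1.74, not detected) and 72.0 and 83.6 on Flut+Acy (errors 5.04 and 5.99). Its bound was 4.35-fold above Sham.

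**Figure D2:**
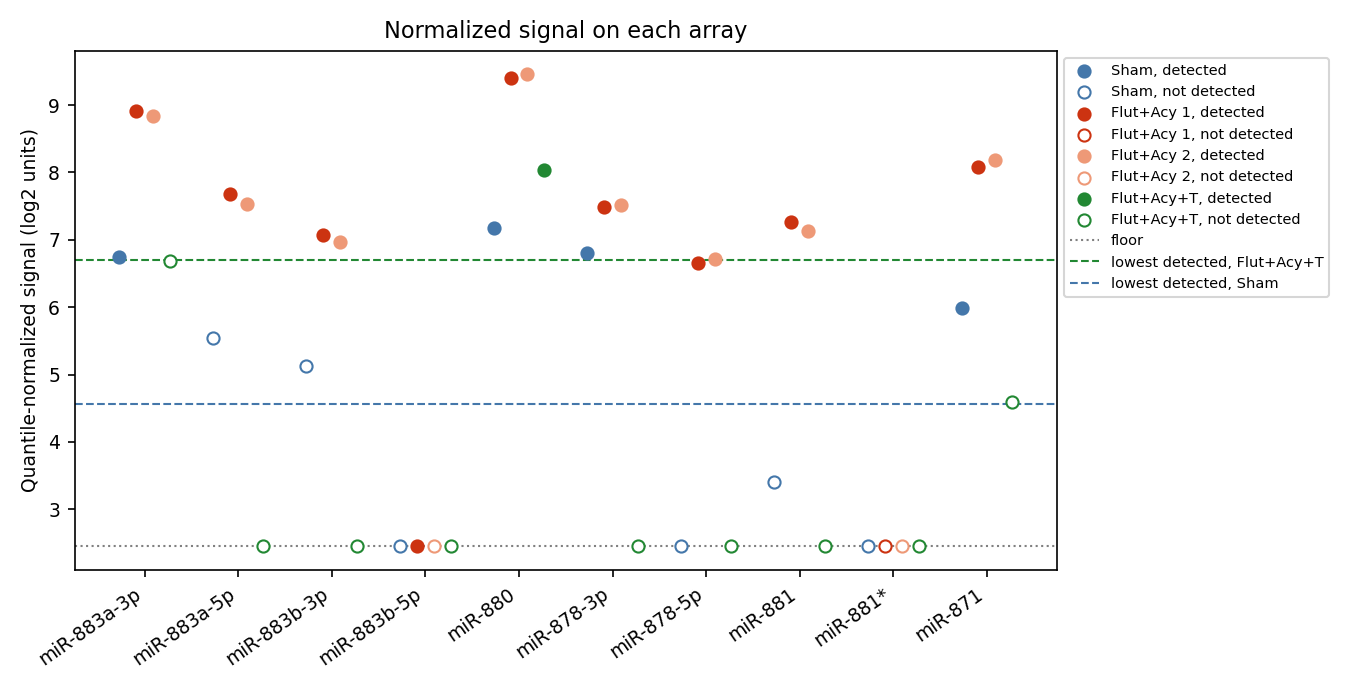
Quantile-normalized log2 signal of each miRNA on each array, with filled points for detected and open points for not detected. The dotted line is the floor (2.45), and the dashed lines are the lowest values detected on Sham (4.56) and on Flut+Acy+T (6.69). The Flut+Acy pair lies above Sham for 8 miRNAs, and the only Flut+Acy+T point that was detected is that of miR-880.

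Taking all 10 names, 9 had a detected value on a Sham or Flut+Acy array. Of the 9, Flut+Acy exceeded Sham by 2-fold or more for 7 and Sham exceeded Flut+Acy by that much for 0. Over the 283 miRNAs that met the same filter, the shares were 22.6% upward and 16.6% downward. The median difference was 2.13 for the 9 and -0.18 for the 283. Among miRNAs detected on Sham and on both Flut+Acy arrays, for which no bound is needed, 3 of 4 passed 2-fold upward, against 13.8% of 189. Of the arms present on both Flut+Acy arrays, 4 of 8 went undetected on Sham, against 28.1% of the 263 miRNAs found on both. These 4 entered through the group in which they were high, so nothing is read from their bounds as a set. In the order of all 283 differences, from the highest down, and of the arms detected on Sham, miR-880 was at place 27, miR-871 at 31, miR-883a-3p at 33 and miR-878-3p at 76. The other 4 arms were not detected on Sham, so their differences rest on undetected Sham signals or the floor and can be too large. Their places are therefore not exact: miR-878-5p 2, miR-881 5, miR-883a-5p 36 and miR-883b-3p 42. The count of 7 and the median of 2.13 include these differences, such as 18.8-fold for miR-878-5p, whose bound was 4.35-fold.

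The probes of each miRNA cover different lengths of it, and the data per probe show how the signals arose. For miR-880 the probe covering 18 bases gave 9.32 units on Sham and 276 and 324 on Flut+Acy, and the probe covering 19 bases gave 17.7, 502 and 536. The mean ratio of Flut+Acy to Sham was 32.2 and 29.2, so both probes showed the difference to a like degree. For miR-871 and miR-883a-3p the probe covering 19 bases exceeded 3 times its error on Sham, with ratios of 28.5 and 27.3, while the probe covering 18 bases did not.

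In miR-878-3p the difference depended on the probe. The probe covering 15 bases gave 8.31 units on Sham and 117 and 135 on Flut+Acy, a ratio of 15.2. The probe covering 14 bases gave 3.03, 24.7 and 31.4, a ratio of 9.25. The one covering 12 bases went the other way, with 4.81 units on Sham against 0.19 and 1.09 on Flut+Acy, and the one covering 13 bases gave 2.79, 6.49 and 2.74. The total signal sums these probes, so the Sham total of miR-878-3p includes a short probe whose signal was higher on Sham than on either Flut+Acy array. For miR-878-5p the probe covering 15 bases was at background on all 3 arrays (-1.31, -0.64 and 0.33 units), and the Flut+Acy signals were larger with each base, at 10.1 and 11.0 units for 16 bases, 23.8 and 28.7 for 17 and 38.8 and 43.5 for 18. On Sham all 4 of its probes lay between -1.31 and 0.41 units.

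**Figure D3:**
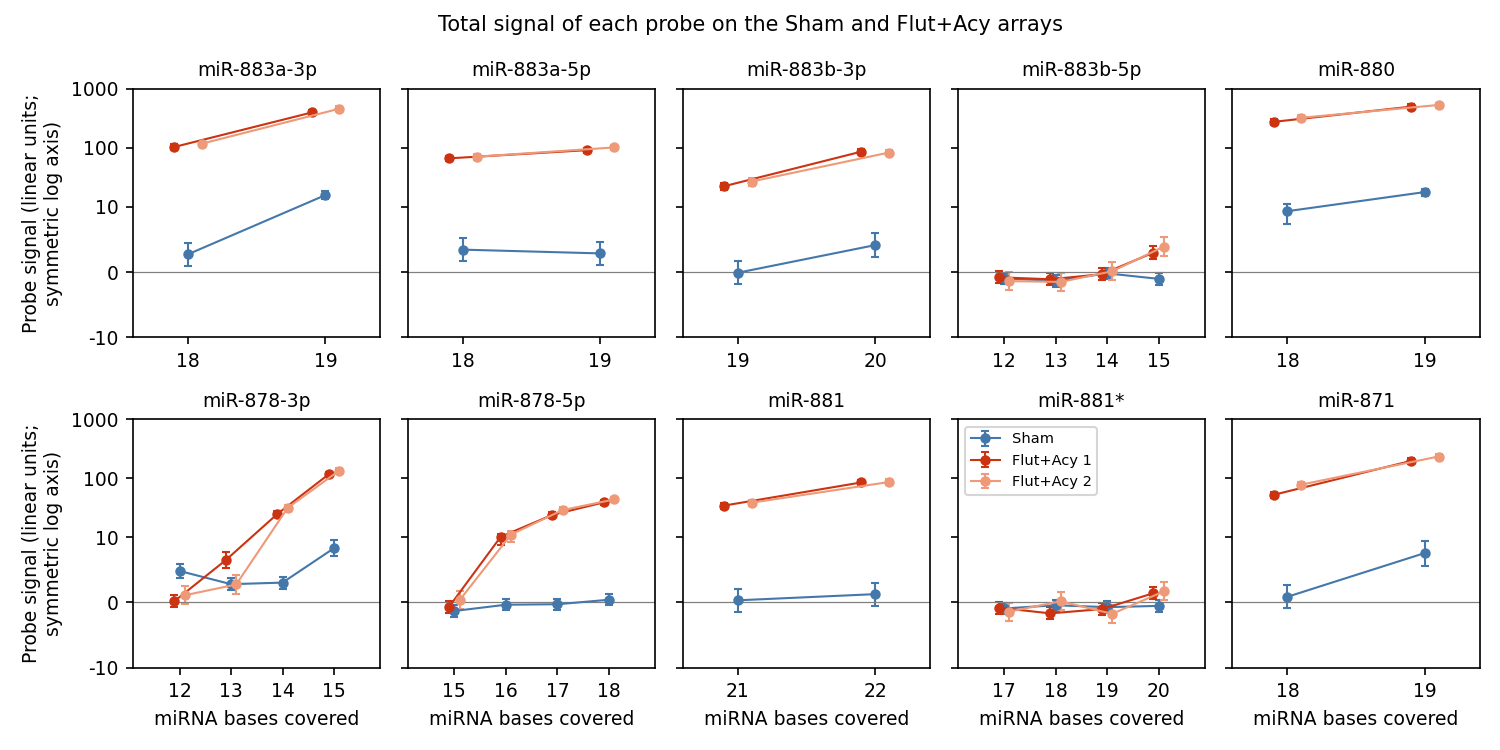
Total signal of each probe on Sham and both Flut+Acy arrays (linear units on a symmetric log axis) against the number of miRNA bases the probe covers, with bars for the error given by the scanner software and 1 panel per miRNA. The arrays of the Flut+Acy pair follow each other in the panels with signal, except at 13 bases of miR-878-3p (6.49 and 2.74 units). In the miR-878-3p panel Sham lies above Flut+Acy at 12 bases and below at 14 and 15.

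With testosterone given back, 1 of the 10 miRNAs was detected. For miR-880 the difference of Flut+Acy+T minus Flut+Acy was -1.39 on the log2 scale (2.62-fold lower), and that of Flut+Acy+T minus Sham was 0.87. Its flag on this array rested on 1 probe, and 0 of its 20 spots were well above background, against 16 on Sham. Before normalization the difference from Flut+Acy was -0.78, under 2-fold.

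For the 7 other arms detected on Flut+Acy, a bound of the same kind used the lowest normalized signal detected on Flut+Acy+T (104 units). It too makes no allowance for error and is for quantile normalization only. By this bound miR-883a-3p was 4.54-fold lower than on Flut+Acy and miR-871 2.72-fold. Taken from their own undetected Flut+Acy+T signals, the log2 differences varied over 11 settings. They ranged from -3.2 to -1.2 for miR-883a-3p and from -4.3 to -1.3 for miR-871. The bound of miR-871 does not take in the errors of its own probes. Its brighter probe gave 197 and 234 units on Flut+Acy before normalization and had an error of 87.5 on Flut+Acy+T. Both signals are under 3 times that error, so the same signal on Flut+Acy+T would not have been called detected. miR-883a-5p (1.88-fold), miR-878-3p (1.75-fold), miR-881 (1.42-fold) and miR-883b-3p (1.26-fold) had bounds under 2-fold, and miR-878-5p, whose Flut+Acy values lay near that limit, had none above 1. Thus for 5 of the 7 the array could not show a 2-fold difference, and for miR-871 the probe errors leave its bound uncertain. Of the 8 arms detected on both Flut+Acy arrays, 7 were not detected on Flut+Acy+T, against 68.4% of the 263 miRNAs detected on both, and 2 of the 7 had a bound of at least 2-fold, against 15.0% of 180. Counting values at the floor, 8 of 9 were at least 2-fold lower, with a median of -4.23, against 50.8% and a median of -1.11 over the 297 that these groups detected. This count rests largely on values below the detection limit of that array, whose part in it was not tested further.

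Set against Sham, the Flut+Acy+T values were within 2-fold for 2 of the 4 that either array detected, against 37.6% of 218 such miRNAs. These were miR-880, above Sham by 0.87, and miR-883a-3p, at 6.69 against 6.75 on Sham and not detected on Flut+Acy+T. Neither stayed within 2-fold under every scaling. miR-880 was above Sham by 2.27 when arrays were scaled to the 75th percentile of the commonly detected miRNAs, by 4.14 without normalization and by 1.03 from spot means, and miR-883a-3p, slightly below Sham in the main setting, was above it by 1.81, 3.68 and 0.18. miR-871 was not detected on Flut+Acy+T and gave a difference of -1.40 from Sham, which turned to 1.04 with that percentile scaling and to 2.91 without normalization. miR-878-3p had a bound of 1.08-fold below Sham, close to 1.

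The miRNAs around them on X showed a like difference. The run of array miRNAs with gaps under 100 kb that holds the 10 counts 25 names over 62.4 kb (chrX:64029935-64092288, mm9). Of the other 15, Flut+Acy exceeded Sham by 2-fold or more for 12 and lay 2-fold or more below it for 0, with a median difference of 2.40. All 6 that were detected on Sham were among the 12. Within a few kb of miR-880, miR-741 was higher by 2.48 on the log2 scale and miR-463 by 4.36 (not detected on Sham). miR-743a at one end was higher by 2.36 and miR-465c-3p towards the other by 2.40, while miR-465a-5p lay at the floor on all arrays. Testosterone was accompanied by values at least 2-fold lower than Flut+Acy for 11 of the 15, against 50.8% of all miRNAs, and at least 2-fold higher for 1, miR-463*, which was not detected on Flut+Acy+T. That array detected 2 of the 15, so most of these values lay below detection. Of the 6 that Sham or Flut+Acy+T detected, 5 were within 2-fold of Sham with testosterone, against 37.6% of 218 such miRNAs. Flut+Acy+T itself detected only miR-741 and miR-465c-3p of them, and this count was not repeated under other scalings.

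**Figure D4:**
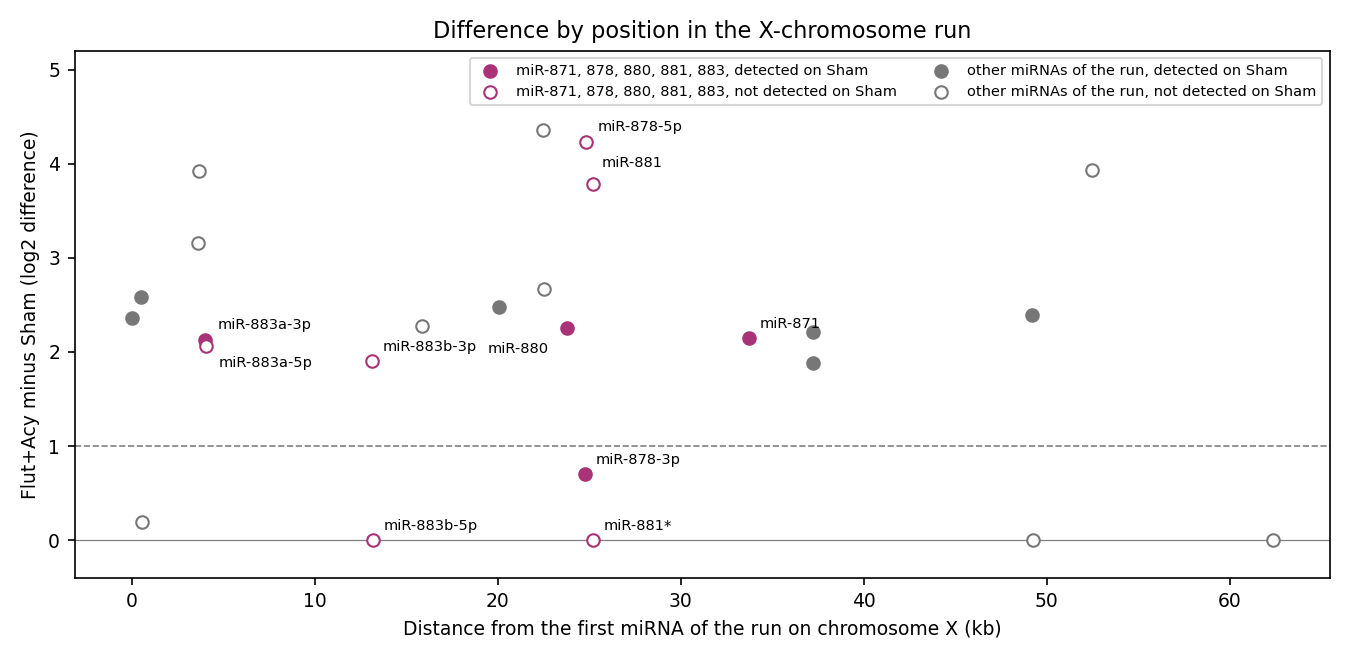
Log2 difference of Flut+Acy minus Sham (quantile-normalized signal) for the 25 array miRNAs of the X run against distance from the first of them in kb, coloured for the 10 miRNAs described and grey for the other 15, filled where detected on Sham and open where not. The dashed line marks 2-fold, and the filled points, apart from miR-878-3p, lie between 1.88 and 2.58.

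Outside the names chosen, the patterns over the 4 arrays closest to the median pattern of the 8 arms were sought among 255 other miRNAs detected on both Flut+Acy arrays, by Euclidean distance of log2 values centred on each miRNA's mean. The closest were miR-34c* (distance 0.29), miR-17* (0.41), miR-466e-3p (0.44), miR-470* (0.60) and miR-503 (0.61). miR-470* belongs to the same X run, miR-503 lies elsewhere on X, and the others are on chromosomes 9, 14 and 2. Sham detected 1 of the 5 (miR-470*) and Flut+Acy+T 0, and the likeness is partly one of values below detection.

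Lists of miRNAs known from other cells that a Sertoli cell preparation can hold were read on the same arrays. The 7 miRNAs of the miR-34b/c and miR-449 families, which are abundant in meiotic and later germ cells, had a summed normalized signal of 1695 units in Sham, of 7162 and 6023 in the Flut+Acy pair and of 2497 with testosterone. Of 5 with a detected value on these groups, 5 passed 2-fold upward in Flut+Acy, with a median of 2.02, and miR-449b and miR-449c were detected nowhere. Sham detected 3 of the 7 and Flut+Acy+T 3. Of 7 early germ cell miRNAs of the miR-290 to miR-295 cluster, 5 had a detected value and 3 of them passed 2-fold upward (median 2.04). These 3 (miR-291a-3p, miR-292-3p and miR-295) lay at the floor on Sham, so their differences rest on undetected Sham signals. miR-290-5p and miR-294, also detected, differed by 0.31 and 0.32. The sums were 151, 257, 271 and 1211 in the same order of arrays, with 1 of the 7 detected on Sham and 1 on Flut+Acy+T. The miR-202 pair of gonadal somatic cells summed to 409, 361, 344 and 11.4 units. Flut+Acy+T detected 0 of the 2, so the sum on that array lies below detection. The arms differed in direction, with miR-202-3p at -0.37 and miR-202-5p at 2.86 in Flut+Acy minus Sham (1 of 2 past 2-fold upward, median 1.25). On Sham miR-202-5p lay at the floor. Of 5 detected blood cell miRNAs, 0 passed 2-fold upward and 2 downward (median -0.89), with sums of 1038, 494, 498 and 414. Flut+Acy+T detected 0 of the 6 listed. Of 4 smooth muscle and peritubular miRNAs, 0 passed 2-fold upward and 3 downward (median -1.13), with sums of 4560, 2480, 2622 and 3029. The endothelial miR-126 pair had a median of -0.16 and sums of 1647, 2062, 1938 and 3285. The part of other cells in the differences of miR-871, miR-878, miR-880, miR-881 and miR-883 was not tested.

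The size of the differences depended on the scaling between arrays. The median difference between Flut+Acy and Sham over the 283 miRNAs was -0.18 after quantile normalization, 0.40 when arrays were scaled to the 75th percentile of the commonly detected miRNAs, -0.34 when scaled to that of all mouse miRNAs and 1.75 without normalization. Relative to these medians, the median of the 9 miRNAs was higher by 2.31, 3.12, 3.02 and 3.12. miR-883b-5p, at the floor, lay 0.18 above the median of all miRNAs after quantile normalization, and without normalization its difference from that median was -1.75. Without normalization 8 of 9 were at least 2-fold higher, against 74.9% of all miRNAs. Over the settings tried, miR-880 stood between 1.55 and 4.92 above Sham and miR-871 between 1.03 and 5.05, past 2-fold in 12 of 12 settings each, whereas miR-878-3p ranged from 0.02 in the deposited table to 3.07 and passed 2-fold in 2 of 12.

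**Figure D5:**
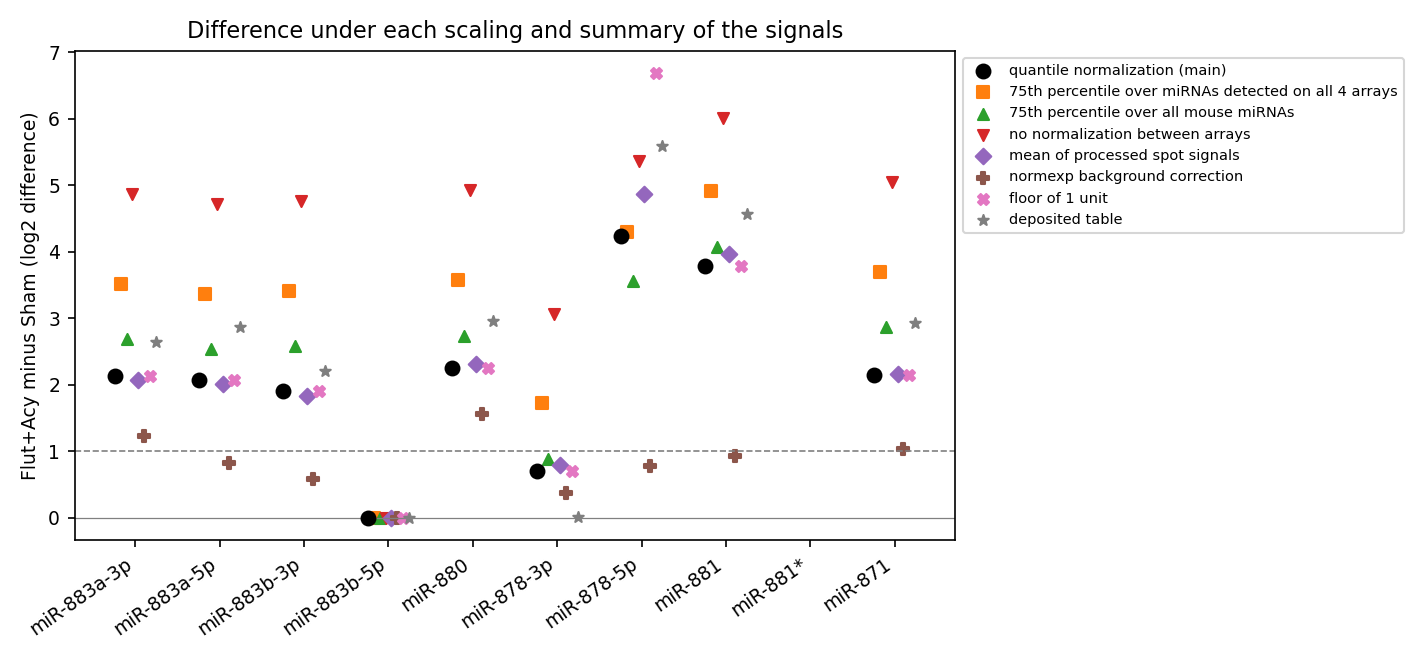
Log2 difference of Flut+Acy minus Sham for each miRNA under 8 scalings and summaries of the signals, with the dashed line at 2-fold. miR-881* has no points because it was detected nowhere, the normexp points are the lowest for 7 of the 8 arms with a difference, and those of miR-878-3p lie under the line except when scaled to the 75th percentile of the commonly detected miRNAs and without normalization.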

How the data were processed

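The authors deposited the output of Agilent Feature Extraction 9.5.3.1 (named in the submitters' notes) for each one-colour miRNA array and a table quantile-normalized in MATLAB. The deposited intensities are linear. Those of the scanner output were background-subtracted, combined over the probes of a miRNA and not normalized between arrays, and can be below 0. The spot summary behind the table is not given in the sources used here, so the table was an alternative only.

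For all 567 mouse miRNAs, total signals of the 4 arrays were brought to one distribution by quantile normalization (limma 3.58.1, R 4.3.3). Values under 5.46 units, the median of the 4 arrays' lowest detected values, were set to it before taking log2. Those lowest values were 23.6 on Sham, -12.7 and -21.5 on the Flut+Acy pair and 104 on Flut+Acy+T. The -12.7 is that of miR-883b-5p, whose total signal there did not exceed its error, so the floor depends in part on that flag. miRNAs detected on at least 1 array compared were counted at a 2-fold threshold. Counting was checked on simulated data. Tables and figures were made with Python 3.11.15, pandas 2.3.3 and matplotlib 3.10.9. Sequences came from RefSeq. An arm was assigned by the spacing of start positions, the same for 10 of 10 names in both builds. The members, the lists of neighbours and cell types, and the alternatives were chosen with earlier results of these data known. All names found by the rule, neighbours on X, miRNAs with a shared seed and the 5 closest patterns are named. The number of arrays limits the precision.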

Additional observations from a re-analysis of the deposited data

How the results depend on the processing

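Over the alternatives tried, the 8 arms detected on both Flut+Acy arrays were above Sham in every setting that gave a value, but their sizes moved. The median difference of Flut+Acy minus Sham, 2.13 by quantile normalization, was 3.52 when arrays were scaled to the 75th percentile of the commonly detected miRNAs (those found on all 4 arrays), 2.69 when scaled to that of all mouse miRNAs, 4.87 without normalization, 2.07 from processed spot means, 2.86 in the deposited table, 2.14 with detection required on every array compared, 2.10 with no filter and 2.14 to 2.15 without either Flut+Acy array. With normexp background correction (offset 50) it was 0.82, 3 miRNAs passed 2-fold in place of 7, 6 of the neighbours in place of 12, 4 in place of 8 were 2-fold lower on Flut+Acy+T and 4 in place of 2 lay within 2-fold of Sham. With detection on every array, 3 of 4 miRNAs and 6 of 6 neighbours passed, and 1 of 1 (miR-880) was 2-fold lower on Flut+Acy+T and 1 of 1 within 2-fold of Sham.

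The median of Flut+Acy+T minus Flut+Acy, -4.23, was -3.76 with scaling over all miRNAs, -4.95 without normalization, -4.79 from spot means, -0.99 with normexp, -4.90 with a floor of 1 unit, -1.39 with detection on every array, -3.89 with no filter and -4.39 to -4.21 without either Flut+Acy array. The median of Flut+Acy+T minus Sham, -0.73, was 1.42 with scaling over commonly detected miRNAs, -0.51 over all miRNAs, 3.30 without normalization, -0.57 from spot means, -0.17 with normexp, -0.98 in the deposited table, 0.87 with detection on every array and -0.51 with no filter. The count within 2-fold of Sham, 2 in the main setting, was 0 with scaling over commonly detected miRNAs and 0 without normalization, 3 with scaling over all miRNAs, 1 from spot means and 6 with no filter. miR-871 turned from below Sham on Flut+Acy+T to above it, by 1.04 with scaling over commonly detected miRNAs and 2.91 without normalization. The cause was not tested. No paired analysis was possible because the groups were of different mice and Sham and Flut+Acy+T have 1 array each. A slide or scan block was not run because all arrays were on 1 slide in 1 scan. In the deposited table the floor rule gave a value below 0, so a floor of 1 unit was used. The Flut+Acy+T array, with a lowest detected total of 238 units, limits every comparison with it. It also entered the quantile normalization of the other arrays, and leaving it out was not tried.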
